A study of Mus musculus with 21 samples.

Results

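The 10 genes described here were the cytosolic and mitochondrial heat shock genes Hspa1a, Hspa1b, Hsph1, Dnajb1, Hspa8, Hsp90aa1, Hsp90ab1, Hspb1, Hspe1 and Hspd1. They were the rows of a count table of 53801 mouse genes that carry these symbols, and all 10 were found once each and had at least 10 counts over all libraries. The table came from bulk RNA-seq of CD138+ IgA+ plasma cells sort-purified from the lamina propria of the small intestine (mice on a C57BL/6 background), a population that makes the antibody secreted into the gut. Each of the 21 libraries was 1 mouse. Control mice (Mb1Cre-/- x Arntlfl/fl, titled WT) were taken at Zeitgeber time ZT0, lights on (n = 6), and at ZT12, lights off (n = 6). Knockout mice (Mb1Cre+/- x Arntlfl/fl, titled KO) were taken at ZT0 (n = 4) and ZT12 (n = 5). Both genotypes carried the floxed alleles of Arntl, which encodes the clock activator Bmal1. The control animals had no Cre, so the presence of the Cre allele and the loss of Bmal1 cannot be told apart. Mb1 is Cd79a, a B lineage gene, so deletion covers B cells from early development and not plasma cells alone. The genotype field of 8 of the 9 libraries titled KO names the control genotype, and groups here follow the titles.

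Heat shock proteins are chaperones that hold, fold and refold other proteins. In the cytosol, proteins of the HSP70 family bind unfolded stretches, J-domain proteins such as Dnajb1 bring them clients, HSP110 proteins such as Hsph1 exchange their nucleotide, and HSP90 finishes the folding of many signalling proteins. Hspd1 and Hspe1 form the folding chamber of the mitochondrial matrix. Under heat or other proteotoxic stress the factor Hsf1 switches on many of these genes through heat shock elements, runs of GAA units in alternating orientation. The cells were released from the gut by repeated warm stripping and a warm collagenase digestion before sorting, per the study's methods, and whether that handling had a part in any value below was not tested.

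Promoter windows of 250 bases before an annotated start (RefSeq, GRCm38.p6) were at hand for 7 of the 10 genes, 10 windows in all. They are shown because members that share a motif could be compared with members that do not. The motifs searched were GAANNTTC and TTCNNGAA, each its own reverse complement, so that both strands were covered. At least 1 of them lay in 7 of the 10 windows, those of Hspa1a, Hspa1b, Hspb1, Hspe1, both starts of Hsph1 and 1 of the 2 starts of Hspd1. The same was true of 12.8% of all 32851 windows. An overlapping run of 3 units (GAANNTTCNNGAA or TTCNNGAANNTTC) lay only in the windows of Hspe1 and Hspd1 among these genes, and in 0.466% of all windows. The 2 windows of Dnajb1 held neither motif. Capitals mark the motifs.
Hspa1a, chr17:34972157-34972406, minus strand: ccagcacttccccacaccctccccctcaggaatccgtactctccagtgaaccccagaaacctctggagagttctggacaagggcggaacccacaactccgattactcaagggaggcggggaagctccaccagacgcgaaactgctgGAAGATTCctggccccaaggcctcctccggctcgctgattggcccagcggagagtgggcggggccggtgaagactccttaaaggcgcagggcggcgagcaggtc
Hspa1b, chr17:34959239-34959488, minus strand: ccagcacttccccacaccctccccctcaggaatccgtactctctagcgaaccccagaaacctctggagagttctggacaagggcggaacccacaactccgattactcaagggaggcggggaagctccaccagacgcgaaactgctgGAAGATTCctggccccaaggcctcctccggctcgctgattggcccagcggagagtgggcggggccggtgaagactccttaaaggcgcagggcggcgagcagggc
Hspb1, chr5:135887789-135887918, plus strand: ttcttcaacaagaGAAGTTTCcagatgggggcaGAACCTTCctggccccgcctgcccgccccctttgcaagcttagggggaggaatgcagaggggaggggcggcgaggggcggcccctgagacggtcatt
Hsph1, chr5:149636351-149636380, minus strand: gggtagaatctTTCTCGAAggctcgagaag
Hspe1, chr1:55088054-55088081, plus strand: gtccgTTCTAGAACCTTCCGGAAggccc
The Hspa1a and Hspa1b windows were identical at 247 of 250 bases, with the differences C44T, T47C and T249G, counted from 1 at the 5′ end with the Hspa1a base first. Their motif began at position -104 from each start. The capitals printed for Hspe1 hold 2 overlapping matches of 3 units. They are the same DNA that the Hspd1 window holds on the other strand, since Hspd1 and Hspe1 face away from each other. The stretches of Hspa1a, Hspa1b and Hspb1 overlap no exon of the GENCODE annotation, while those of Hsph1 and Hspe1 overlap first exons of annotated transcripts of Hsph1 itself and of Hspd1. A match here is a run of letters and not a measured binding site.

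Per the table, whose build is not given in the sources used here, Hspa1b (chromosome 17, 34956436 to 34959238) and Hspa1a (34969190 to 34972156) are neighbours on the minus strand, and Hsp90ab1 lies on the same chromosome (45567775 to 45573271, minus). Hspd1 (chromosome 1, 55077835 to 55088243, minus) and Hspe1 (55088132 to 55091307, plus) adjoin. Hsph1 (149614287 to 149636376, minus) and Hspb1 (135887919 to 135889563, plus) are on chromosome 5, Dnajb1 on chromosome 8 (83608193 to 83612653, plus), Hspa8 on chromosome 9 (40800984 to 40810087, plus) and Hsp90aa1 on chromosome 12 (110690605 to 110702728, minus).

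Libraries held 14471018 to 22785835 counts, of which 51.5% to 63.6% fell on immunoglobulin genes, and the 10 heat shock genes together took 0.223% to 1.06% of the rest. Values are CPM, counts scaled to a common library size with TMM factors. Summed markers of plasma cells (Igha, Jchain, Sdc1 and 4 others) reached 321756 to 427563 CPM (here and for other summed markers without TMM) in every library, against 56.2 to 657 for 10 epithelial markers and 0 to 3.22 for 5 stromal markers. T cell, myeloid and other B cell lists each reached at most 78.8 CPM. Of the T cell markers, Cd3d was at 0 in 9 of 21 libraries, while Cd4 (173 to 483 counts) and Trac (4 to 50) were found in every library. Arntl, the targeted gene, had 7.80 ± 0.53 CPM (SD, n = 6) in control mice at ZT0 and 4.87 ± 1.08 (n = 4) in knockout mice at ZT0. At ZT12 it had 4.54 ± 0.55 (n = 6) and 3.89 ± 0.70 (n = 5). The groups did not overlap at ZT0, but with counts over the whole gene, undeleted exons included, the genotype difference at ZT0 was not called (log2 fold change -0.68, SE 0.17, edgeR adjusted p = 0.926). The library labelled knockout ZT0 replicate 3 had 6.47 CPM of Arntl, near the lowest control mouse at ZT0 (6.83), while the other 3 of its group had 4.08 to 4.51. It also had the highest immunoglobulin share of its group (59.4%). Control ZT12 replicate 2 stood apart too, with the highest immunoglobulin share of all libraries (63.6%) and the lowest summed myeloid (9.30 CPM) and other B cell markers (9.13 CPM). Its chi-square per gene was 165 to 242 against each mouse of its group. Pairs of that group without this mouse had 51.2 to 167, so the ranges overlapped. Knockout ZT12 replicate 2 also stood apart, with a chi-square per gene of 149 to 159 against each mouse of its group. The other pairs of that group had 40.8 to 49.5. The part of these libraries in the results was not tested beyond leaving each out.

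The most abundant member per length was Hsp90ab1, the constitutive cytosolic HSP90, with a median of 185 CPM per kb over the 21 mice. Hspa8, the constitutive HSP70 of the cytosol, followed with 120 CPM per kb, and Hsp90aa1, the inducible HSP90, with 62.5. Dnajb1 had 37.6, Hspa1b 25.4, Hspe1 22.7, Hspd1 16.8, Hspa1a 15.9, Hsph1 10.2 and the small heat shock protein gene Hspb1 2.22 CPM per kb. Each of the first 3 lay above the next gene in 21 of 21 mice, and so did Hsph1 above Hspb1. In the middle the order varied with the mouse: Hspa1b lay above Hspe1 in 10 of 21 mice, Hspd1 above Hspa1a in 12 and Hspa1a above Hsph1 in 14. Lengths were those given with the counts, 4301 bases for Hspa8 and 2999 for Hsp90ab1. Their longest coding transcripts have 2394 and 2520 bases. How far the order depends on the length used, or on the shared sequence described next, was not tested. Hspb1 rested on as few as 8 counts in a library, so its values carry the largest counting error of the set.

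Several members share sequence with other genes, and how reads of such stretches were assigned is not stated in the sources used here. Of the 150-base windows of their longest coding transcripts in GENCODE, 39.7% of those of Hspa1a and 40.5% of those of Hspa1b occurred in another gene, mostly in each other. Hspa8 shared 55.4%, Hsp90aa1 36.2%, Hspb1 36.6% and Hspd1 18.6% with processed pseudogenes, Hspe1 shared 14.1% with a protein-coding gene, and Hsph1, Dnajb1 and Hsp90ab1 shared 0. Hspa1a took 29.0% to 45.8% of the summed Hspa1a and Hspa1b counts (median 38.6%), so the pair kept a similar ratio in mice whose levels lay far apart. Both summed into 1 feature gave a log2 fold change of 2.08 (SE 0.85, edgeR adjusted p = 0.25) from ZT0 to ZT12 over both genotypes. Hspd1 and Hspe1 overlap by 112 bases on opposite strands, and no source used here states whether counting used strand.

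Between mice of the same group Hspa1a and Hspa1b differed more than nearly any other non-immunoglobulin gene with a mean log2 CPM over 3. They encode the stress-inducible HSP70. In control mice at ZT0, Hspa1a had a lowest, median and highest value of 5.01, 27.1 and 153 CPM, and at ZT12 of 11.3, 105 and 269.6 CPM. The 4 knockout mice at ZT0 had 2.97, 19.2, 54.6 and 3.93 CPM, and the 5 at ZT12 had 427, 9.25, 18.5, 295 and 49.9 CPM. Each group held mice that lay many times apart, and all 4 groups overlapped. The highest mouse, knockout ZT12 replicate 1, stood 144 times above the lowest, knockout ZT0 replicate 1. Hspa1b ran from 9.42 to 242 CPM (median 40.6) in control mice at ZT0 and from 15.8 to 467 (median 165) at ZT12. Its values in knockout mice were 7.25, 31.1, 74.2 and 5.91 CPM at ZT0, and those at ZT12 were 695, 10.95, 30.8, 432 and 86.2 CPM. The same knockout ZT12 mice, replicates 1 and 4, led both genes.

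**Figure D1:**
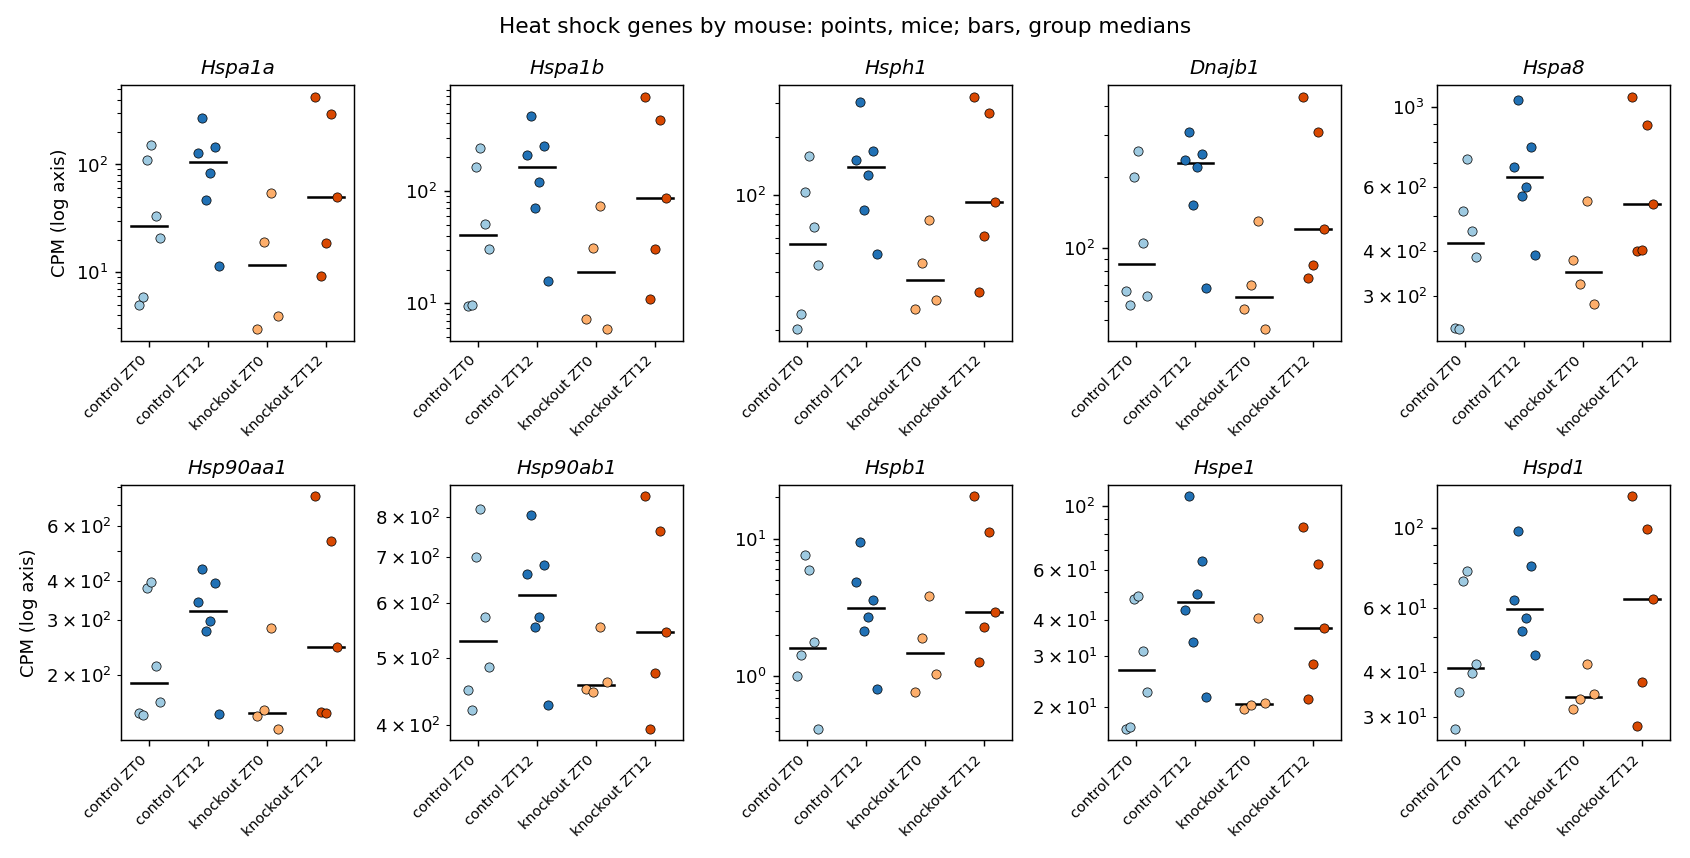
CPM on a log axis for each of the 10 heat shock genes, 1 panel a gene; each point is a mouse, black bars are group medians, and the groups are control and knockout mice at ZT0 and ZT12. Every gene overlaps between groups, and Hspa1a runs from 2.97 to 427 CPM.

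Hsph1, the HSP110 partner of HSP70, spread over a smaller range. At ZT0 its lowest, median and highest values in control mice were 20.3, 55.7 and 159 CPM, and at ZT12 they were 49.6, 139.7 and 302 CPM. In knockout mice the values at ZT0 were 25.8, 44.5, 74.4 and 28.7 CPM, and those at ZT12 were 322, 31.5, 61.3, 264 and 92.5 CPM. Dnajb1, the J-domain partner, ran from 57.5 to 258 CPM (median 85.8) in control mice at ZT0 and from 68.3 to 310.2 (median 228) at ZT12. Its values in knockout mice were 55.3, 69.9, 130.5 and 45.7 CPM at ZT0, and those at ZT12 were 437, 74.96, 85.3, 311 and 120.5 CPM. For both genes the ranges of all 4 groups overlapped, and replicates 1 and 4 led the knockout mice at ZT12.

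The constitutive and HSP90 members moved less. Hspa8 had a lowest, median and highest value of 244, 420.4 and 717 CPM in control mice at ZT0 and of 391, 643 and 1046 CPM at ZT12. In knockout mice its values at ZT0 were 379, 324, 552 and 285 CPM, and those at ZT12 were 1069, 401, 403, 892 and 539.6 CPM. Hsp90aa1 ran from 134 to 749 CPM and Hsp90ab1 from 394 to 858 CPM over all mice, a 5.59-fold and a 2.18-fold range. Hspb1, whose product binds unfolding proteins without ATP, ran from 0.417 to 20.3 CPM.

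The mitochondrial chaperonin genes also spread. Hspd1, the HSP60 subunit, ran from 27.7 to 76.3 CPM (median 40.8) in control mice at ZT0 and from 44.3 to 98.4 (median 59.8) at ZT12. In knockout mice the ZT0 values were 31.4, 33.5, 42.0 and 34.6 CPM, and those at ZT12 were 123, 28.2, 37.4, 99.3 and 63.7 CPM. Hspe1, its HSP10 lid, ran from 16.8 to 48.7 CPM (median 26.9) and from 21.7 to 108 (median 46.3) in control mice at ZT0 and ZT12. Its values in knockout mice were 19.7, 20.3, 40.8 and 20.6 CPM at ZT0, and those at ZT12 were 84.5, 21.3, 28.1, 62.7 and 37.5 CPM. The 4 knockout mice at ZT0 lay close together for Hspd1, and for Hspe1 all but replicate 3 did.

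The SD within groups, on the log2 CPM scale, was 2.01 for Hspa1a and 2.01 for Hspa1b. Among 6935 non-immunoglobulin genes with a mean log2 CPM over 3 these were the second and the third largest, after Xist. Hsph1 (SD 1.09) ranked 8, Dnajb1 (0.90) 22, Hspe1 (0.72) 48, Hsp90aa1 (0.72) 49, Hspd1 (0.59) 94, Hspa8 (0.55) 114 and Hsp90ab1 (0.36) 549, against a median of 0.20 over those genes. Hspb1 had an SD of 1.34 but fell under the level limit. The ranks are a description, with no test.

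**Figure D2:**
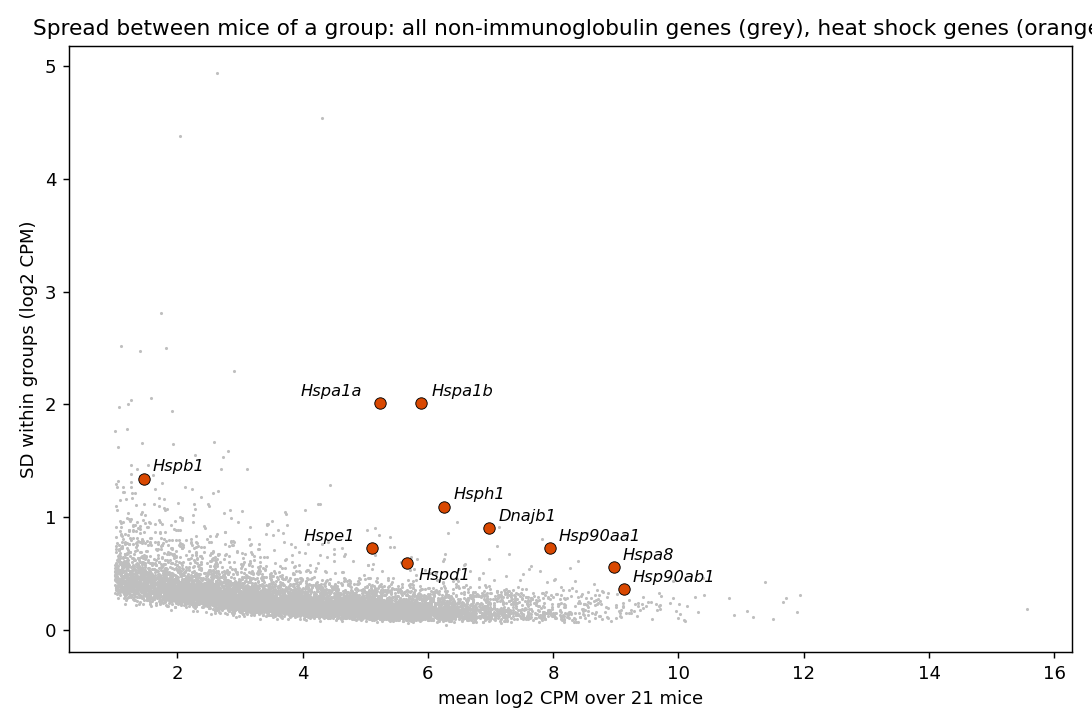
SD of log2 CPM between mice of the same group (vertical axis) against mean log2 CPM over 21 mice (horizontal axis), for non-immunoglobulin genes (grey) and the 10 heat shock genes (orange, named). Hspa1a and Hspa1b lie at an SD of 2.01, where the median over the 6935 genes with a mean over 3 is 0.20.

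The same mice were high or low for the whole set. Knockout ZT12 replicate 1 was the highest of 21 mice for 9 of the 10 genes, and control ZT12 replicate 2 was the highest for Hspe1. Knockout ZT12 replicates 1 and 4 and control ZT12 replicate 2, which stands apart as given above, were among the top 5 mice for 10 of 10 genes, and control ZT0 replicate 4 for 9. At the other end, control ZT0 replicate 1 was among the lowest 5 for 10 of 10 genes, and knockout ZT0 replicates 1 and 4 for 9 each. The 10 genes took 1.06% of non-immunoglobulin counts in knockout ZT12 replicate 1 and 0.223% in control ZT0 replicate 2.

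With each group's mean removed, the 45 pairs of members correlated across the 21 mice with Pearson's r from 0.84 (Hspa8 with Hspb1) to 0.99 (Hspa1a with Hspa1b), median 0.94. Of 7 relations set for testing, 4 paired members. Hspa1a and Hspa1b had r = 0.99 and Spearman's rho = 0.99, Hsph1 and Dnajb1 r = 0.95 and rho = 0.95, Hsp90aa1 and Hsp90ab1 r = 0.96 and rho = 0.94, and Hspd1 and Hspe1 r = 0.92 and rho = 0.91. Each of the 4 had p = 1e-05 for r and for rho, the smallest that 100000 two-sided permutations within groups can give (adjusted p = 2e-05 over the 7 relations). Without the 2 mice farthest from the median of the first gene, r was 1.00, 0.95, 0.95 and 0.90 in the same order. Hspa1a and Hspa1b share windows, as given above, and Hsph1 and Dnajb1 share none with each other or any other gene. The part of shared sequence in these r was not tested. The size of the swing differed: per log2 unit of the mean of Hspa1a, Hspa1b, Hsph1 and Dnajb1, Hspa1a and Hspa1b moved by 1.34 each, Hspb1 by 0.82, Hsph1 by 0.72, Dnajb1 by 0.59, Hsp90aa1 and Hspe1 by 0.46 each, Hspd1 by 0.36, Hspa8 by 0.35 and Hsp90ab1 by 0.23 log2 units. The first 4 genes are part of that mean.

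**Figure D3:**
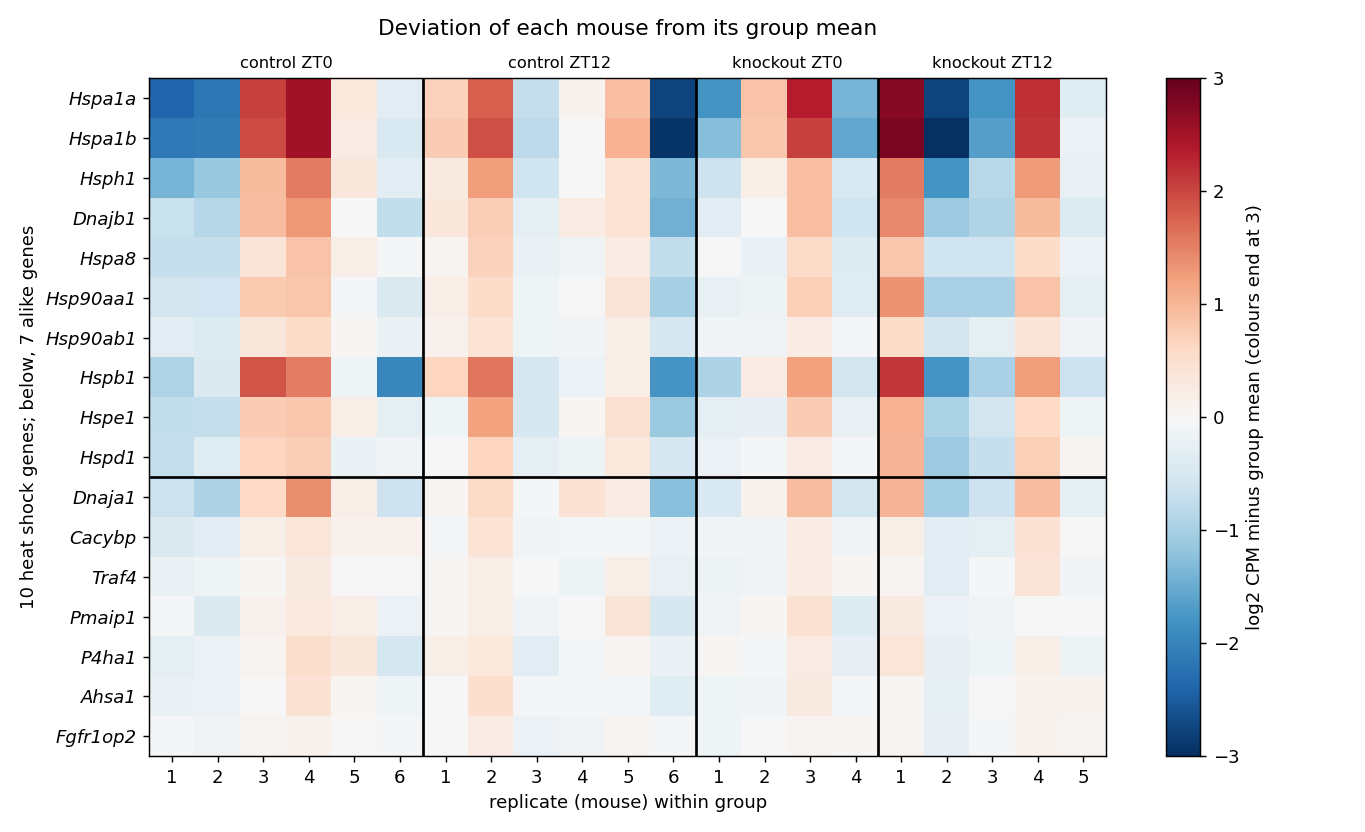
Deviation of each mouse from its group mean in log2 CPM (red above, blue below, colours end at 3), with mice in columns by group and replicate, the 10 heat shock genes above the line and 7 genes of like pattern below. Knockout ZT12 replicate 1 lies above and control ZT12 replicate 6 below its group mean for all 10 heat shock genes, most strongly for Hspa1a and Hspa1b.

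The mean of Hspa1a, Hspa1b, Hsph1 and Dnajb1 was set against 3 other measures of each library, again with group means removed over 21 mice. Its r was 0.38 (rho 0.27) with the mean of 15 genes of the tissue dissociation response such as Fos, Jun and Egr1, 0.38 (rho 0.27) with the immunoglobulin share of counts, and 0.03 (rho -0.19) with the log2 library total. Without the mice farthest from the median, knockout ZT0 replicates 1 and 4, these were 0.35, 0.35 and 0.08. No p is given because the mean is a score over members.

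**Figure D4:**
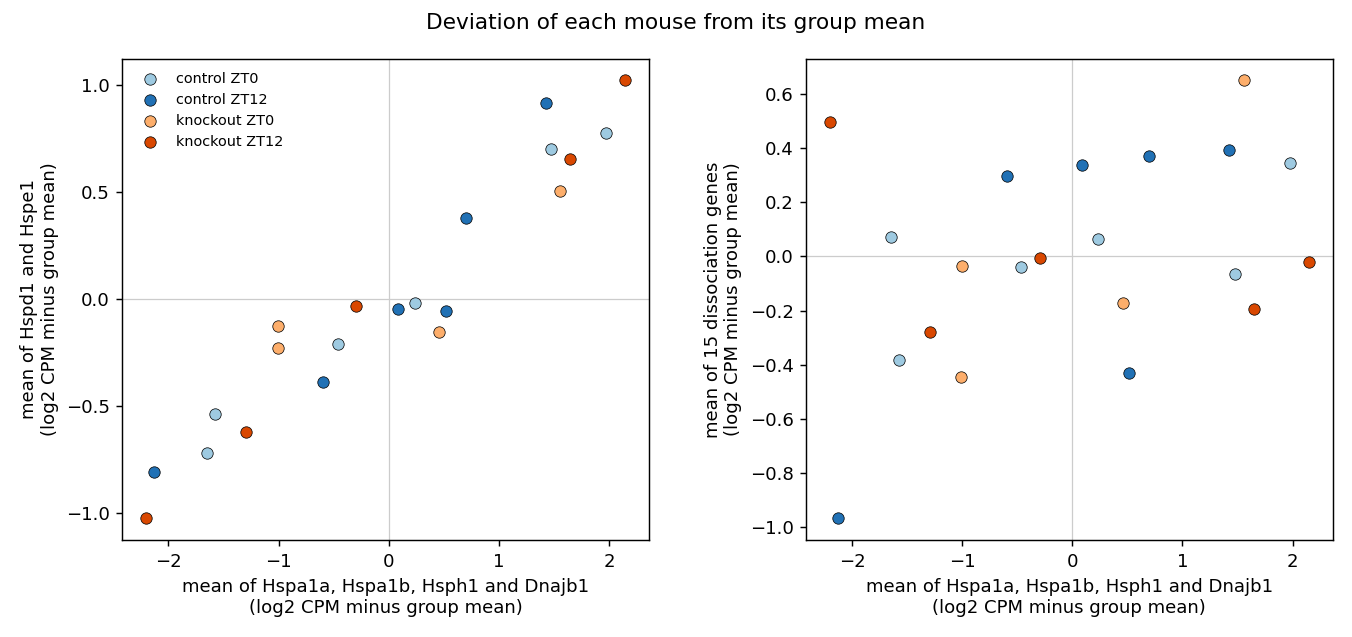
Deviation from the group mean in log2 CPM, with the mean of Hspa1a, Hspa1b, Hsph1 and Dnajb1 on the horizontal axes of both panels, against the mean of Hspd1 and Hspe1 (left) and the mean of 15 dissociation response genes (right). Each point is a mouse coloured by group. The mitochondrial pair rises with the cytosolic genes from the lowest to the highest mouse, while the dissociation genes (r = 0.38) scatter.

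The genes most like this mean among 6926 others were named by r as a description. They were Gm15542 (0.97), Dnaja1 (0.96), Cacybp (0.87), Traf4 (0.83), Pmaip1 (0.80), P4ha1 (0.79), Ahsa1 (0.78) and Fgfr1op2 (0.76). The median r over those genes was -0.04 and 20 of them passed 0.7. Dnaja1, a further J-domain partner of HSP70, ran from 86.1 to 608 CPM and was highest in knockout ZT12 replicate 1. Gm15542 is a processed pseudogene that shares 76.6% of its 50-base windows with Dnaja1, so its counts may be reads of Dnaja1. Ahsa1 activates the ATPase of HSP90, Cacybp encodes a partner of a ubiquitin ligase, and Pmaip1 encodes the BH3-only protein Noxa. The 5 genes most like the mean of Hspd1 and Hspe1 were Gm15542 (0.92), Dnaja1 (0.91), Cacybp (0.88), Traf4 (0.83) and Fgfr1op2 (0.83). Traf4 encodes an adaptor of receptor signalling and kept a narrow range, from 23.6 to 39.6 CPM.

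The first comparison asked whether the genes differed between ZT12 and ZT0. Averaged over both genotypes, all 10 had higher estimates at ZT12, where 49.7% of genes did, by a median log2 fold change of 0.96, against a median of -0.002 over the 20256 genes tested. None of the 10 was called by edgeR's quasi-likelihood test at an adjusted p of 0.05, where 0.805% of genes were called in either direction. At an unadjusted p of 0.05, 8 of the 10 were higher, where 8.59% of genes were. Since the 10 moved together from mouse to mouse, these 8 are not 8 separate observations. Hsph1 had the smallest adjusted p (log2 fold change 1.46, SE 0.48, edgeR adjusted p = 0.167), followed by Hspa8 (0.72, SE 0.24, adjusted p = 0.172). Hspa1b had the largest estimate, 2.13 (SE 0.85, adjusted p = 0.239). Hspd1 (0.71, SE 0.26, adjusted p = 0.204) and Hspe1 (0.84, SE 0.33, adjusted p = 0.226) lay near Hspa8, and Hsp90ab1 was the smallest, 0.22 (SE 0.15, adjusted p = 0.50). DESeq2 called 1 of the 10 in this comparison, Hsph1 (log2 fold change 1.47, SE 0.45, DESeq2 adjusted p = 0.0321), where it called 2.8% of genes higher and 4.76% in either direction. It gave 9 of 10 an unadjusted p under 0.05, where 8.45% of genes were higher at that level. Without knockout ZT12 replicate 1, the number at an unadjusted p of 0.05 in edgeR fell from 8 to 5. With the immunoglobulin share as covariate it was 4, with a median of 0.72.

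In control mice alone the 10 estimates were also higher at ZT12 (median log2 fold change 0.69), except Hsp90ab1 when libraries were scaled by their totals alone (-0.12), and none was called, where 1.73% of genes were by edgeR and 8.5% by DESeq2. Of all genes 50.6% had an estimate above 0. No member reached an unadjusted p of 0.05 in edgeR, where 18.1% of genes did, and 2 did in DESeq2, Hspa8 and Hspe1, where 9.73% of genes were higher. In edgeR the number was 3 without control ZT0 replicate 4, and 2 without control ZT0 replicate 3, without control ZT12 replicate 6 or with no robust estimation. Without control ZT12 replicate 2 the median of the 10 was 0.48. The nearest in edgeR was Hspa8 (log2 fold change 0.67, SE 0.32, adjusted p = 0.278), with a 95% interval from -0.001 to 1.33. Hspa1a stood at 1.06 (SE 1.05), its interval running from -1.16 to 3.28, so that a fall or a marked rise were both within it. The distributions of 0 of the 10 genes were separate, where 1.6% of all genes were. The immunoglobulin share of counts was 51.5% to 53.3% in control mice at ZT0 and 53.3% to 63.6% at ZT12. With this share as a covariate the median of the 10 was -0.03, only 4 estimates stayed above 0, and 0 of 20256 genes were called. The share was nearly separate between the times, so that it and time of day cannot be told apart in control mice.

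In knockout mice the estimates were larger, with a median log2 fold change of 1.24. All 10 were above 0, where 50.7% of genes were, and again none of the 10 was called, where 0% of genes were by edgeR and 0.319% by DESeq2. At an unadjusted p of 0.05, 6 of the 10 were higher in edgeR, where 3.91% of genes were higher and 8.01% differed in either direction, and 8 in DESeq2, where 3.82% were higher. The largest were Hspa1b (3.09, SE 1.35) and Hspa1a (3.00, SE 1.35), each with an edgeR adjusted p of 0.613. Hspb1 stood at 2.02 (SE 0.95), Hsph1 at 1.83 (SE 0.75), Dnajb1 at 1.45 (SE 0.62) and Hspd1 at 0.99 (SE 0.40). These estimates rested on few mice. Without knockout ZT12 replicate 1, knockout ZT12 replicate 4 or knockout ZT0 replicate 1, 0 members reached an unadjusted p of 0.05. Without knockout ZT0 replicate 2 or 4 the number was 1, and without knockout ZT0 replicate 3 it was 9, with a median of 1.60. Without knockout ZT12 replicate 2, which stands apart as given above, it was 10. No distribution was separate between the times, where 2.63% of all genes were.

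**Figure D5:**
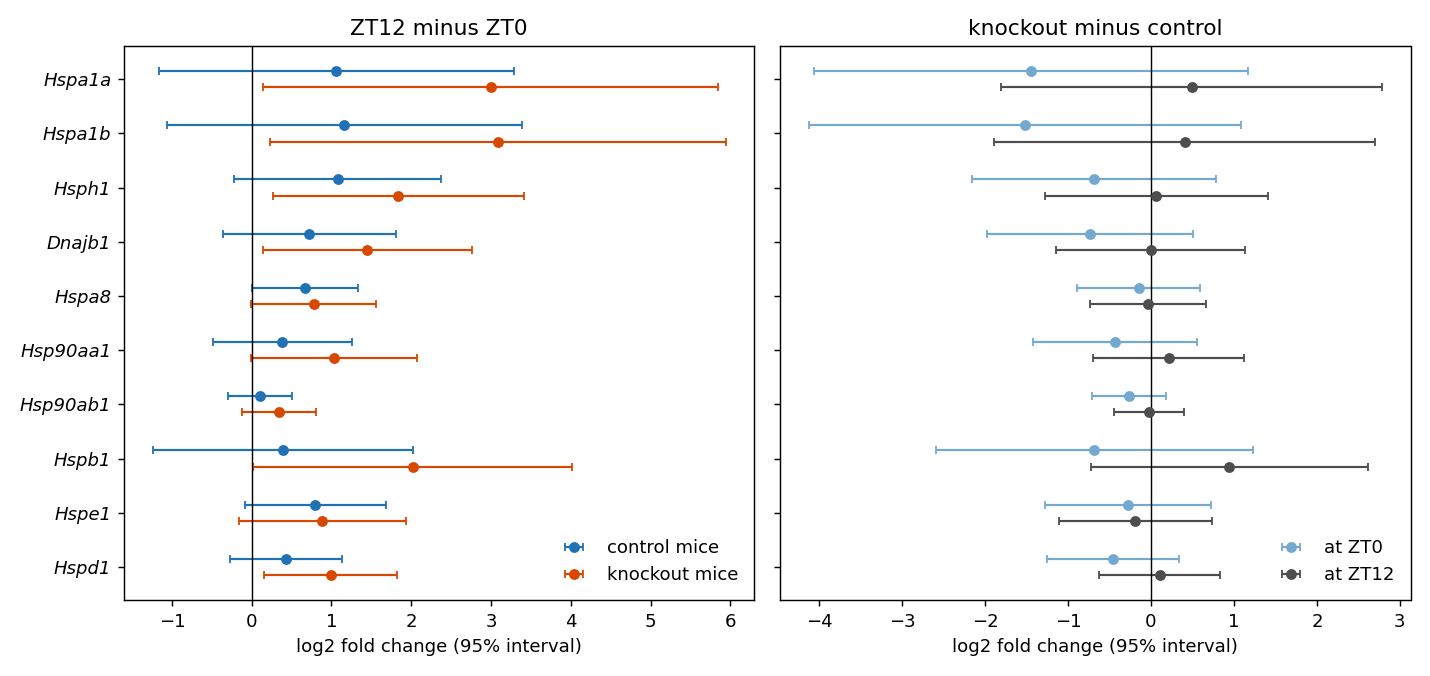
Log2 fold change of each heat shock gene with its 95% interval from the edgeR fit, from ZT0 to ZT12 in control and knockout mice (left) and from control to knockout mice at ZT0 and ZT12 (right). The time estimates all lie above 0, and most intervals, from -1.16 to 3.28 for Hspa1a in control mice, include 0.

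Whether the time difference depended on genotype was tested as an interaction. All 10 estimates were positive (median 0.69), where 51.1% of genes were. None was called by edgeR or DESeq2, which called 0% and 0.0279% of genes, and none had an unadjusted p under 0.05 in either, where 10.8% of genes did in edgeR. For Hspa1a the interaction was 1.94 (SE 1.64, 95% interval -1.52 to 5.39), and for Hspe1 0.09 (SE 0.64, -1.27 to 1.44), so both intervals took in differences of either sign. The median of the 10 was 0.24 without knockout ZT12 replicate 1, with 8 of 10 above 0, was 0.37 without control ZT0 replicate 4 and reached 1.04 without knockout ZT0 replicate 3. With the immunoglobulin share as covariate it was 1.32. For Hspa1a the interaction ran from 1.15 to 3.15 as single libraries were left out, the ends being those without knockout ZT12 replicate 1 and knockout ZT0 replicate 3.

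Knockout and control mice were then compared at each time. At ZT0 all 10 estimates were lower in knockout mice, where 51.2% of genes were (median log2 fold change -0.57), from -0.15 for Hspa8 (SE 0.35) to -1.52 for Hspa1b (SE 1.24). The median was -0.27 without control ZT0 replicate 4 and -0.91 without knockout ZT0 replicate 3, and Hspa1b stood at -0.84 and -2.53 in the same fits. None was called by edgeR or DESeq2, which called 0.00987% and 0.0247% of genes, and 0 of 10 had an unadjusted p under 0.05 in either, where 4.9% of genes did in edgeR. At ZT12, 6 estimates were higher and 4 lower (median 0.08). With libraries scaled by their totals alone all 10 were higher, but the median of all genes then shifted from -0.010 to 0.12. All 10 were also higher with the immunoglobulin share as covariate (median of all genes -0.004) and without control ZT12 replicate 2 (-0.014). Without knockout ZT12 replicate 1 only 1 was higher (-0.017). None was called by edgeR or DESeq2, which called 0.0148% and 0.0574% of genes, and 0 of 10 had an unadjusted p under 0.05 in either, where 8.83% of genes did in edgeR. The largest was Hspb1 (0.94, SE 0.79) and the nearest to 0 was Dnajb1 (-0.004, SE 0.54). No gene was separate between genotypes at either time, where 0.977% and 0.38% of all genes were. The comparisons above share mice, so agreement in sign between them is not independent.

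Marker lists were compared between the times in the same way. All 10 epithelial markers had higher estimates at ZT12 in each genotype (median log2 fold change 2.38 in control and 2.00 in knockout mice), none was called, and 9 had an unadjusted p under 0.05 over both genotypes. Their summed level was highest in control ZT12 replicate 5 (657 CPM) and knockout ZT12 replicate 5 (481), and was 63.8 to 83.9 in the 3 mice that led the heat shock genes. Without these 2 replicates numbered 5, an alternative chosen after seeing the data, the median of the 10 heat shock genes over both genotypes was 0.99. The 15 dissociation genes, immediate early genes for the most part, had a median log2 fold change of 0.44 from ZT0 to ZT12 in control mice and of -0.50 in knockout mice, where all 10 heat shock genes had estimates above 0. None of the 15 was called in either. Fos stood at 1.30 (SE 0.50, edgeR adjusted p = 0.185) in control and -1.23 (SE 0.57, adjusted p = 0.615) in knockout mice. At ZT12, 14 of the 15 were lower in knockout than in control mice, 11 with an unadjusted edgeR p under 0.05, where 8.83% of genes had one. In the interaction 14 were negative, 10 with an unadjusted p under 0.05, where 10.8% of genes had one. None was called in these comparisons either. Whether the 15 moved together from mouse to mouse was not tested, so these counts may not be separate observations. The stretch of count columns with higher sums of these genes, given below, held control ZT12 replicates 3 and 4 and knockout ZT12 replicate 2. Its part was not tested. In bulk libraries, fewer cells of a kind and less RNA per cell cannot be told apart.

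Other genes of the chaperone pathway were counted from 3 lists, against 49.7% of all genes with a higher estimate over both genotypes, 8.59% higher at an unadjusted p of 0.05 and 0.805% called. Of 25 tested (26 listed) cytosolic co-chaperone and Hsf1 pathway genes, 18 had higher estimates at ZT12 over both genotypes (median 0.10) and 1 was called, Dnajb4, a J-domain protein (0.40, SE 0.10, edgeR adjusted p = 0.0495). That call was lost in 19 of 34 alternative settings, with adjusted p from 0.00856 to 0.144. Dnaja1 had the largest estimate of the list, 1.05 (SE 0.36, adjusted p = 0.176). In control mice alone the smallest p values of the list belonged to Dnajc7 (0.40, SE 0.12, adjusted p = 0.0845) and Hspa2 (0.71, SE 0.21, adjusted p = 0.0942). In knockout mice Dnajc7 stood at 0.01 and Hspa2 at 0.20, and neither interaction was called (adjusted p = 0.455 and 0.559). All 8 subunits of TRiC, the cytosolic chaperonin that folds actin and tubulin, had higher estimates at ZT12 (median 0.16), 5 with an unadjusted p under 0.05 and none called. Tcp1 (0.18, SE 0.06, adjusted p = 0.165) and Cct8 (0.17, SE 0.06, adjusted p = 0.207) had the smallest p over both genotypes, and Cct4 (0.37, SE 0.11, adjusted p = 0.0845) and Cct3 (0.24, SE 0.08, adjusted p = 0.132) in control mice. In knockout mice Cct4 stood at -0.02 and Cct3 at 0.08, and neither interaction was called (adjusted p = 0.451 and 0.645). Of 11 mitochondrial chaperone and protease genes, 7 had higher estimates over both genotypes (median 0.04) and none was called. Grpel1, the nucleotide exchange factor of mitochondrial HSP70, came nearest (0.24, SE 0.06, adjusted p = 0.0543), followed by Clpx (0.26, SE 0.10, adjusted p = 0.207). Both also had the smallest p of the list in control mice, 0.25 (SE 0.08, adjusted p = 0.0871) for Grpel1 and 0.38 (SE 0.13, adjusted p = 0.13) for Clpx. In knockout mice they stood at 0.22 and 0.14, and neither interaction was called (adjusted p = 0.941 and 0.665).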

How the data were processed

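The authors deposited 1 table of raw read counts per gene for 21 libraries (poly-A selected, NEB Next Ultra kit, paired-end NovaSeq reads), with symbol, position and length of each gene. The aligner, the counting tool, its strand setting and the genome build are not given in the sources used here. The submitters' processing notes name DESeq2. Groups came from sample titles. Genes with at least 10 counts over all libraries were kept (20256), scaled by TMM and fitted with edgeR 4.0.16 (robust quasi-likelihood, 4 group means, Benjamini-Hochberg over all genes, threshold 0.05). The method was tested on simulated data. Standard errors are the estimate over the square root of F. CPM are TMM-scaled, and log2 CPM carry a prior count of 2. DESeq2 1.42.0, other scalings, filters and covariates, the stricter threshold of 0.01, a replicate block and leaving out each library were alternatives. Permutations used scipy 1.17.1. The 46 pairs of libraries within groups differed by a chi-square of 29.5 to 242 per gene, so none was taken as a repeat of another. The labels name no batch and do not say that libraries came from separate animals. The study shows them as individual mice, and otherwise p-values would measure technical spread. The count columns are ordered in 3 stretches that each hold all 4 groups. Replicate numbers rise along these stretches within each group, but the same number can fall in different stretches in different groups. From control ZT0 replicate 4 to knockout ZT12 replicate 2, summed dissociation genes were 5623 to 9351 CPM, against 3458 to 6545 elsewhere. Whether the stretches are batches is not stated, and their part was not tested. Named genes were all members, the called or leading genes of 3 chaperone lists, and the 8 and 5 genes most like the means of 4 inducible and 2 mitochondrial members. The members and lists were chosen with earlier results of these data known.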

Additional observations from a re-analysis of the deposited data

Results flagged for a closer look

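Both results flagged here came from the same mouse, knockout ZT0 replicate 3, which lay above the other 3 mice of its group. Its Hspe1 level was 40.8 CPM, and the gap to the next mouse was 0.935 of the range of the group on the log2 CPM scale. Its Hsp90ab1 level was 554 CPM, with a gap of 0.847 of the range, though the other 3 mice had 446 to 461 CPM. Hspe1 and Hsp90ab1 moved together across mice (group-centred r = 0.96), so the 2 flags are not separate observations. Such a gap was looked for in 40 combinations of a member and a group, 2 were found, and chance gives about 1 in 20. This mouse also had the highest summed level of the 15 dissociation genes of all 21 mice, 9351 CPM, the highest immunoglobulin share of its group, 59.4%, and an Arntl level of 6.47 CPM against 4.08 to 4.51 in the other 3, near the lowest control mouse at ZT0 (6.83). The genotype field of most libraries titled KO names the control genotype. Whether any of these had a part was not tested.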

How the results depend on the processing

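No member was called in any comparison under any alternative, leaving out each library included, except Hsph1 from ZT0 to ZT12 over both genotypes with DESeq2, where 1 member was called. Of the log2 fold changes of single genes under alternatives that kept all libraries or left out those highest in epithelial markers, 754 kept direction and side of the threshold, 22 reversed, 1 became called and 4 (Dnajb4) lost the call. The cause of the reversals was not tested. For control ZT12 against ZT0, scaling by library totals alone gave Hsp90ab1 -0.12 (the median of all genes then shifted to -0.20), and the immunoglobulin share as covariate gave Hspa1a -0.22, Hspa1b -0.12, Hsp90aa1 -0.030, Hsp90ab1 -0.12, Hspb1 -0.51 and Hspe1 -0.031. For knockout against control at ZT12, library totals alone gave Dnajb1 0.18, Hspa8 0.14, Hsp90ab1 0.13 and Hspe1 0.033 (the median of all genes then shifted to 0.12). In the same comparison the immunoglobulin share gave Dnajb1 0.40, Hspa8 0.24, Hsp90ab1 0.12 and Hspe1 0.40, and the Xist level as covariate gave Dnajb1 0.042. Leaving out the 2 libraries highest in epithelial markers, chosen after seeing the data, gave Dnajb1 0.20, Hspa8 0.071 and Hsp90ab1 0.043. Samples of the same replicate number had a group-centred r from -0.31 to 0.35 (28 pairs, 7 over 0.1). Pairs of different numbers were not compared, so whether the numbers pair the samples was not settled. With the replicate block, knockout against control at ZT12 became -0.20 for Hsph1, -0.020 for Hsp90aa1 and -0.034 for Hspd1, members with an unadjusted p under 0.05 went from 8 to 5 over both genotypes and from 6 to 0 in knockout mice, Hspa1a stood at 1.24 in control mice, and 183 rather than 350 genes were called in control mice. Leaving out 1 library at a time moved knockout against control at ZT12 from -0.30 to 0.94 for Hspa1a, from -0.44 to 0.90 for Hspa1b, from -0.40 to 0.40 for Hsph1, from -0.49 to 0.21 for Dnajb1, from -0.28 to 0.12 for Hspa8, from -0.23 to 0.41 for Hsp90aa1, from -0.19 to 0.10 for Hsp90ab1, from -0.52 to 0.14 for Hspe1 and from -0.20 to 0.30 for Hspd1. It moved Hspa8 at ZT0 from -0.37 to 0.069, Hspb1 over time in control mice from -0.084 to 0.92, and the interaction from -0.14 to 0.34 for Hspa8 and from -0.25 to 0.41 for Hspe1. Counts of all genes called over time in control mice were 350 in edgeR, 1052 in DESeq2, 38 with only those groups fitted, 150 without the libraries highest in epithelial markers, 0 with the immunoglobulin share, and 31 to 944 leaving out 1 library. Over both genotypes they were 163, against 664 in DESeq2 and 96 to 291 leaving out 1 library. In knockout mice, 0 genes were called by edgeR (1622 at an unadjusted p under 0.05) and 47 by DESeq2. Fitting only the knockout groups left 0 members with an unadjusted p under 0.05. Hspa1a had an SD of 2.01 between mice of a group, and Hspb1 had as few as 8 counts in a library. What limits these comparisons was not tested.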
